A study of Mus musculus with 40 samples.

Results

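The 10 genes described here belong to the NRF2 pathway, the defence that cells raise against oxidants and electrophiles. They were taken by symbol from the gene count table: Nfe2l2, Hmox1, Nqo1, Gclc, Gclm, Gsr, Txnrd1, Srxn1, Prdx1 and Sqstm1. All 10 had a row among the 39056 gene identifiers, and all 10 were among the 15135 genes with enough reads to be tested. RNA was sequenced in bulk from 40 libraries of developing oligodendrocytes of wild-type C57BL/6 mice, labelled as 6 to 7 days old, in 10 groups of 4. Oligodendrocyte progenitors had been immunopanned from cortices of 6-day pups (the tissue label reads whole brain), passed through 2 rounds of passage and given 12 to 14 h to differentiate before plates were randomly assigned, per the labels. By these labels the cells of every group shared genotype, strain, purification and culture, and differed by agent and time. The IFN-gamma and untreated libraries also differed in their level of Y-linked genes, given below. Untreated cells and cells given interferon-gamma (IFN-gamma, a T cell cytokine) at 200 U/ml were collected at 1, 8, 24 and 48 h. Cells given thapsigargin, which blocks the calcium pump of the endoplasmic reticulum (ER) and so brings on ER stress, were collected at 1 and 8 h. The labels state its dose as 200 uM, and whether that unit is as intended could not be settled from the sources used here. They do not say whether the 4 libraries of a group came from separate cultures or animals, and p-values here cover the spread among libraries alone. In untreated groups that spread may be technical. Within each IFN-gamma and thapsigargin group the Y-linked levels differed too widely for its 4 libraries to be repeats of a single source.

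NRF2, the product of Nfe2l2, is a transcription factor of the cap'n'collar family that is held low by KEAP1, an adaptor that hands it to a CUL3 ubiquitin ligase for degradation. Oxidants and electrophiles modify cysteines of KEAP1, NRF2 then accumulates, pairs with a small MAF protein and binds antioxidant response elements, and BACH1 competes for the same elements. Because much of this control acts on the protein, the transcript level of Nfe2l2 is a partial readout of the pathway. Oligodendrocyte progenitors are known to be rich in iron and comparatively poor in glutathione, and the kinase PERK, which is switched on by ER stress, has been described as a regulator of NRF2.

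Promoter sequences were read for the members because antioxidant response elements are what ties these genes to NRF2. RefSeq promoters (build GRCm38.p6, 250 bases before to 50 after each start) were matched by symbol for 7 of the 10 genes, in 9 windows, since Txnrd1 has 3. They were searched on both strands for the core of the antioxidant response element, TGACNNNGC, whose first letters can also be part of an AP-1 site. The core was present in 5 of the 9 windows, in 1 each of Gclm, Nfe2l2, Prdx1, Srxn1 and Txnrd1, and 12.4% of 32851 promoters of the same length held it. The letters were not in the windows of Nqo1 and Sqstm1 or in the first and the third window of Txnrd1. The following stretches show each match with its flanks, on the strand of the gene, with the match in capitals. For Nfe2l2 the capitals read in the direction of the gene, 240 bases before its start (chr2:75704865-75704913, minus strand). This RefSeq start lies 22 bases before that of the reference transcript Nfe2l2-201, whose first letters match the end of the window on the strand shown. In the other members shown here the core lies on the opposite strand. It starts 134 bases before the start of Gclm (chr3:122245393-122245461, plus strand), 133 before that of Prdx1 (chr4:116685436-116685504, plus strand), 92 before the middle start of Txnrd1 (chr10:82859084-82859152, plus strand) and 28 bases after the start of Srxn1 (chr2:152105542-152105570, plus strand).
Nfe2l2: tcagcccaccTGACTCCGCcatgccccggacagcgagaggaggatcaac
Gclm: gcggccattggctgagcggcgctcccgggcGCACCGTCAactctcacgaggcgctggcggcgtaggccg
Prdx1: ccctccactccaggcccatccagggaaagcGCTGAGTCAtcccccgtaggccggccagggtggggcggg
Srxn1: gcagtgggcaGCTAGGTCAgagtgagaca
Txnrd1, middle start: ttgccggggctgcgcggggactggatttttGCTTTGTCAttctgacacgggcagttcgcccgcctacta

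A further motif was searched after the values had been seen. The element TGATGNAA of the ER stress factor ATF4 was in 0 of the 9 windows and in 3.97% of all promoters. A match is a description of letters, not of binding, and its absence says only that these letters are not in these windows.

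The libraries held 13165483 to 22651092 reads on genes, with a median of 18681214. Features resembling ribosomal RNA took 28.3% of the reads in library 2 of IFN-gamma at 1 h and 0.583 to 9.67% in the others. The summed level of 4 Y-linked genes was 144 to 424 CPM (counts scaled by library size, defined below) in the 16 untreated libraries, while 8 of the 16 libraries given IFN-gamma held less than 10 CPM. The levels recurred by library number among the IFN-gamma groups of 8, 24 and 48 h, with 0.656 to 8.18 CPM in libraries 1 and 3 and 305 to 339 CPM in libraries 2 and 4, and in library 2 of thapsigargin, at 29.6 and 25 CPM. At 1 h of IFN-gamma the low libraries were 2 and 3. Whether libraries of different times shared a source is not given in the labels, and the part of this level in the member results was examined by taking it as a covariate. All 11 oligodendrocyte lineage markers were tested, and their summed level was 7279 to 7797 CPM in untreated cells at 1 h. Microglia and macrophage markers were low, with 1 of 10 tested and sums of at most 5.6 CPM in any library, and no marker of any list was without reads in every library. In bulk RNA, fewer cells of a type and less RNA per cell cannot be told apart.

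Levels below are CPM on library sizes scaled by trimmed mean of M values (TMM), written for libraries 1 to 4 of a group in that order. Differences are log2 fold changes ± SE from edgeR's quasi-likelihood test, with 4 libraries in each group. Adjusted p-values are Benjamini-Hochberg values over all 15135 genes, and a gene is called, or said to have risen or fallen, at an adjusted p under 0.05. Per kilobase of exon, the level in untreated cells at 1 h was highest for Prdx1 (111 ± 6.63 CPM per kilobase, SD), followed by Txnrd1 (57.4 ± 2.79), Sqstm1 (37.1 ± 1.75) and Gsr (24.6 ± 1.52). Gclc and Hmox1 came next and were close together, at 14.6 ± 0.410 and 14.6 ± 0.384 CPM per kilobase. Gclm (7.27 ± 0.365), Srxn1 (7.08 ± 0.629) and Nfe2l2 (6.17 ± 0.220) were lower, and Nqo1 was lowest at 0.649 ± 0.224.

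With thapsigargin for 8 h, 5 of the 10 genes rose and 3 fell. Hmox1, Sqstm1, Srxn1, Nfe2l2 and Gclc were higher than in untreated cells, by 1.46 to 3.61-fold. Prdx1, Gsr and Txnrd1 were lower, and Nqo1 and Gclm were not called. Among all genes tested, 29.6% rose and 31% fell in this comparison. In either direction, 8 of the 10 members and 9174 of the 15135 genes were called. Whether the members' share of rises differs from that of all genes was not tested. The median absolute log2 fold change was 0.82 over the members and 0.44 over all genes. The names of the libraries carry numbers, and each group has 2 libraries in the lower 20 and 2 in the upper 20 of these numbers, ranges that the labels do not call batches. Each of these calls but that of Txnrd1 was also made in the lower 20 and in the upper 20 library numbers alone. In the groups of 8 h no library of thapsigargin overlapped the untreated libraries for any of the 8 genes called, and the same held for 56.7% of all genes tested.

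**Figure D1:**
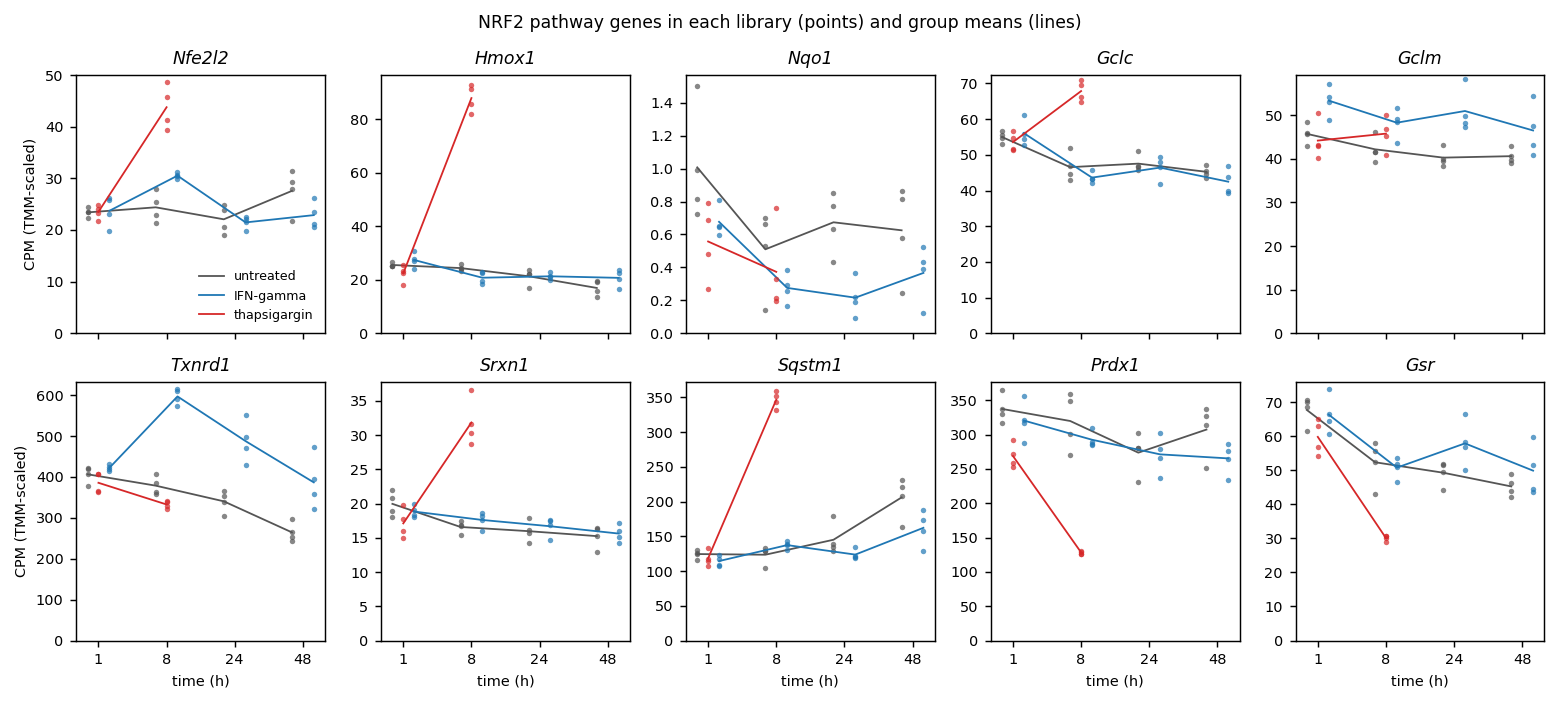
Level of each gene in CPM on TMM-scaled library sizes against time in hours (equally spaced), with 1 point per library and lines through the means of 4 libraries. Thapsigargin at 8 h stands above all other groups for Hmox1, Sqstm1, Srxn1, Nfe2l2 and Gclc and below them for Prdx1 and Gsr, and IFN-gamma at 8 h stands above all other groups for Txnrd1.

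The regulator itself moved moderately. Nfe2l2 stood at 28, 22.9, 25.3 and 21.3 CPM in untreated cells at 8 h and at 48.6, 45.8, 39.4 and 41.3 with thapsigargin. Every thapsigargin library was above every library of the other 9 groups, and the difference was 0.84 ± 0.10 (adjusted p = 6.15e-09). IFN-gamma libraries of 8 h held 29.8, 30.5, 31.1 and 30.6 CPM, a tight group that lay above all untreated libraries of that time. Nfe2l2 had thus risen with IFN-gamma at 8 h as well, by 0.32 ± 0.10 (adjusted p = 0.0164), a call that was absent when libraries of the lower 20 library numbers were taken alone (0.22, adjusted p = 0.27). At 48 h the order was turned, with 29.2, 21.7, 28 and 31.4 CPM untreated and 21.1, 20.6, 26.3 and 23.5 with IFN-gamma. These groups overlapped through the second untreated library, and the fall of -0.27 ± 0.10 (adjusted p = 0.0366) was lost in 10 of 17 alternative analyses. The change in the IFN-gamma effect from 8 to 48 h was itself called, at -0.59 ± 0.14 (adjusted p = 0.00457), though not in the lower 20 library numbers alone (adjusted p = 0.229).

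Hmox1 encodes haem oxygenase-1, which opens the haem ring to release biliverdin, carbon monoxide and iron, and it is a widely used readout of NRF2 activity. Untreated cells at 8 h held 24.5, 23.9, 25.9 and 23.3 CPM of it and thapsigargin cells 85.7, 81.9, 91.4 and 92.8. All 4 treated libraries lay far above the untreated ones, and the rise of 1.85 ± 0.11 (3.61-fold, adjusted p = 1.85e-16) was the largest among the members. At 1 h thapsigargin had left Hmox1 at 23.2, 25.6, 22.6 and 18.2 CPM against 25.1, 25.2, 26.5 and 25.3 untreated, groups that overlapped and were not called (adjusted p = 0.346). The thapsigargin effect at 8 h exceeded that at 1 h by 2.04 ± 0.16 (adjusted p = 3.30e-13). Without treatment Hmox1 declined with time in culture, to 13.5, 19.2, 15.7 and 19.5 CPM at 48 h, a fall of -0.59 ± 0.11 from 1 h (adjusted p = 2.70e-05) with no overlap. IFN-gamma cells held 19.4, 18.4, 22.4 and 22.8 CPM at 8 h, all below the untreated range, yet the difference was not called (-0.23 ± 0.11, adjusted p = 0.137). At 48 h they held 22.4, 16.4, 20.2 and 23.8 CPM, overlapping the untreated libraries. The small rise (0.29 ± 0.11, adjusted p = 0.0436) was lost in 10 of 17 alternatives, among them that with the Y-linked level as covariate.

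Nqo1, the quinone reductase that serves as a classical NRF2 target in many tissues, was barely expressed. Its highest level in any of the 40 libraries was 1.5 CPM, and the 4 thapsigargin libraries of 8 h together held 27 reads of it. At 24 h the untreated libraries had 0.434, 0.851, 0.775 and 0.636 CPM and the IFN-gamma libraries 0.219, 0.187, 0.0938 and 0.364. The groups did not overlap and Nqo1 fell by -1.63 ± 0.46 there (adjusted p = 0.00871), while neither thapsigargin time was called (-0.83 ± 0.38, adjusted p = 0.191, at 1 h and -0.43 ± 0.45, adjusted p = 0.424, at 8 h). The 24 h call was lost in the lower 20 and in the upper 20 library numbers alone (adjusted p up to 0.16). At this depth the 95% interval of the thapsigargin difference at 8 h was wide, -1.36 to 0.49.

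The 3 glutathione genes went separate ways with thapsigargin. Gclc and Gclm encode the catalytic and modifier subunits of glutamate-cysteine ligase, the first step of glutathione synthesis, and Gsr encodes the reductase that turns oxidised glutathione back. Gclc was at 46.8, 42.9, 51.9 and 44.6 CPM in untreated cells at 8 h and at 66.2, 70.9, 69.6 and 64.8 with thapsigargin. The treated libraries were all higher, by 0.55 ± 0.06 (adjusted p = 1.88e-09). Gclm, its partner subunit, was at 41.6, 41.7, 46.3 and 39.3 and 45.3, 50.1, 46.9 and 40.8 CPM in the same groups, which overlapped. Its difference of 0.12 ± 0.08 was not called (adjusted p = 0.212), with a 95% interval of -0.05 to 0.29. Gsr was at 58.1, 52.4, 55.7 and 43.1 CPM untreated and at 30.6, 29, 30.6 and 30.1 with thapsigargin. The 4 thapsigargin libraries lay within 2 CPM of each other and below every other library of the series, and the fall was -0.80 ± 0.09 (adjusted p = 3.66e-09).

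In IFN-gamma cells it was Gclm, not Gclc or Gsr, that was called. At 24 h Gclm held 39.6, 38.4, 43.2 and 40 CPM untreated and 58.3, 49.9, 47.4 and 48.3 with IFN-gamma, groups that did not overlap. The rise was 0.34 ± 0.08 (adjusted p = 0.00185), and it was not called in libraries of the upper 20 library numbers alone (adjusted p = 0.181). At 1 h the IFN-gamma libraries, at 54.2, 57.3, 53 and 49 CPM, were also all above the untreated ones at 42.8, 48.4, 45.6 and 46, but the difference of 0.22 ± 0.08 was not called (adjusted p = 0.237, unadjusted p = 0.00936). At 8 and 48 h the differences of 0.20 ± 0.08 and 0.20 ± 0.08 missed the threshold (adjusted p = 0.0771 and 0.0568). Gsr at 24 h of IFN-gamma also missed it, at 0.23 ± 0.09 (adjusted p = 0.0623). Whether IFN-gamma acts differently on Gclm and on Gclc or Gsr was not tested. Gclm overlaps Gm17494, on the opposite strand, and Gm6061, on the same strand, in the reference annotation. Gm17494 held 2.20 to 3.36 CPM untreated and 1.92 to 3.23 with IFN-gamma at 24 h. At 1 h it held 3.19 to 4.42 CPM with IFN-gamma and 4.39 to 8.02 with thapsigargin. Gm6061 held at most 0.449 CPM in any library.

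Within the thioredoxin branch each gene followed its own course. Txnrd1 encodes the cytosolic thioredoxin reductase, a selenoprotein that recycles thioredoxin with NADPH. It was the member with the clearest response to IFN-gamma. At 8 h the untreated libraries held 407, 364, 386 and 359 CPM and the IFN-gamma libraries 614, 574, 609 and 591, without overlap, a rise of 0.66 ± 0.08 (1.58-fold, adjusted p = 5.41e-08). At 24 h the values were 365, 338, 353 and 305 untreated and 550.4, 430.5, 498 and 472 with IFN-gamma, again apart, with a rise of 0.52 ± 0.08 (adjusted p = 6.52e-06). At 48 h they were 252, 298, 243 and 265 and 473, 322, 358 and 395 CPM, still apart, with a rise of 0.55 ± 0.08 (adjusted p = 1.80e-06). The higher level was absent at 1 h (422 ± 7.49 against 407 ± 19.8 CPM, SD, not called, adjusted p = 0.914), and the effect at 8 h exceeded that at 1 h by 0.60 ± 0.12 (adjusted p = 0.000224), a call lost in the lower 20 library numbers alone (adjusted p = 0.254). The rise was called in the lower 20 and in the upper 20 library numbers at 8 h and at 48 h, but at 24 h not in the lower 20 (adjusted p = 0.0761). Including the Y-linked level as a covariate removed none of the Txnrd1 calls.

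Thapsigargin moved Txnrd1 little. Libraries of 8 h held 339, 342, 329 and 321 CPM, all just below the untreated range, and the difference of -0.19 ± 0.08 was at the threshold (adjusted p = 0.0465). It was lost in 14 of 17 alternatives, among them DESeq2, another scaling and each of the 8 analyses that left out 1 library. Compared directly at 8 h, thapsigargin cells had less Txnrd1 than IFN-gamma cells by -0.84 ± 0.08 (adjusted p = 4.44e-11).

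Srxn1 encodes sulfiredoxin, which restores peroxiredoxins that have been over-oxidised by peroxide. It stood at 17.4, 16.7, 16.8 and 15.3 CPM in untreated cells at 8 h and at 36.6, 30.4, 31.6 and 28.7 with thapsigargin. All treated libraries were higher, by 0.94 ± 0.09 (adjusted p = 3.77e-11). Prdx1, a peroxiredoxin that sulfiredoxin acts on, moved the other way. It had 359, 349, 301 and 270.5 CPM untreated and 127, 129.6, 131 and 126 with thapsigargin. The treated libraries were nearly identical and less than the lowest untreated one by far, and the fall was -1.32 ± 0.09 (adjusted p = 1.51e-14). Prdx1 was also the 1 member called at 1 h of thapsigargin, with 292, 272, 258 and 253 CPM against 337, 331, 365 and 317. That fall of -0.33 ± 0.09 (adjusted p = 0.018) rested on groups without overlap but was lost in 5 of 17 alternatives, including those without library 3 of untreated cells or library 3 or 4 of thapsigargin cells. Of all genes tested, 6.61% rose and 2.18% fell at 1 h. The fall at 8 h exceeded that at 1 h, by -0.99 ± 0.13 (adjusted p = 8.14e-08).

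Sqstm1 encodes p62, an autophagy receptor that carries ubiquitinated cargo to LC3 and binds KEAP1, and its gene is itself an NRF2 target. Its level was 129, 133, 104 and 128 CPM in untreated cells at 8 h and 343, 359.6, 352 and 331 with thapsigargin. No other group of the series reached the thapsigargin libraries, and the rise was 1.49 ± 0.10 (2.80-fold, adjusted p = 1.09e-14). Untreated cells also gained Sqstm1 late in culture, reaching 231, 164, 221 and 208 CPM at 48 h, 0.73 ± 0.10 above 1 h (adjusted p = 2.31e-07). In IFN-gamma cells of 48 h it was 129, 174, 188 and 158 CPM, lower than untreated by -0.34 ± 0.10 (adjusted p = 0.00745), although the groups overlapped and the call was lost in 4 of 17 alternatives, among them that without library 1 of IFN-gamma. Sqstm1 overlaps Mrnip, a gene on the opposite strand in the reference annotation, and whether counting used strand is not given in the sources used here. Mrnip itself held 7.95 to 10.3 CPM in thapsigargin libraries of 8 h and 10.9 to 14.2 in untreated ones.

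**Figure D2:**
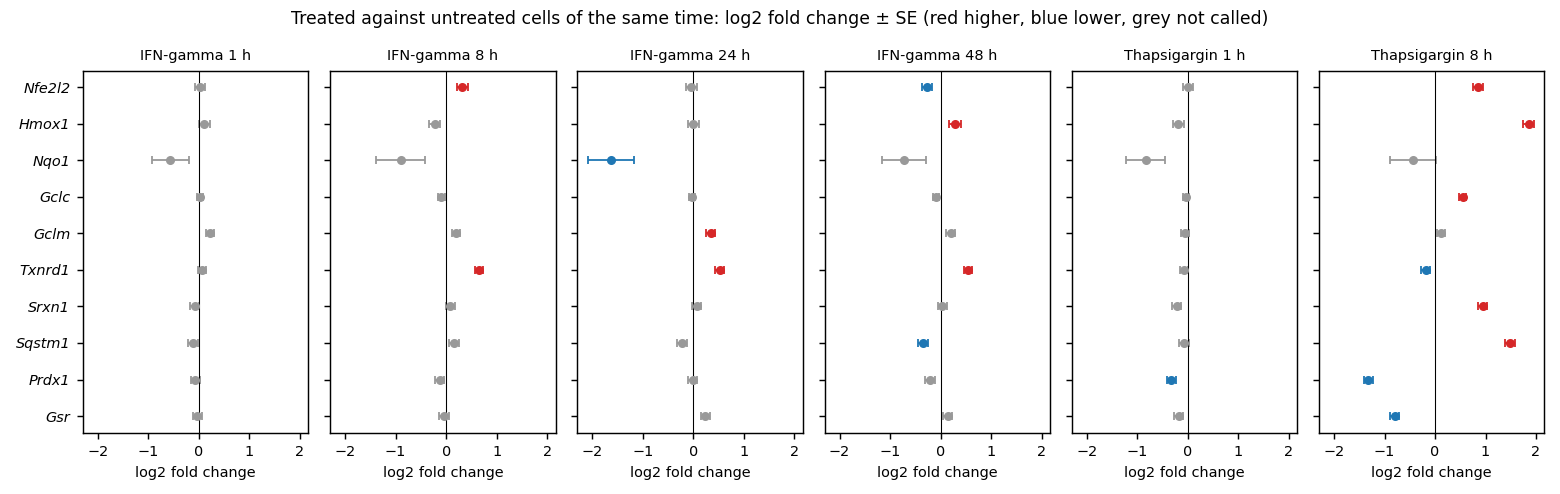
Log2 fold change ± SE of each gene, treated against untreated cells of the same time, from edgeR's quasi-likelihood test on 4 libraries a group, with genes called higher in red, lower in blue and not called in grey. Red points at thapsigargin 8 h run from 0.55 for Gclc to 1.85 for Hmox1, and Txnrd1 is the gene in red at 3 IFN-gamma times.

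Counts of members called with IFN-gamma are read against the share of all genes called. At 1 h there were 0 members called by edgeR and 0 by DESeq2, with 1 at an unadjusted p under 0.05, where 1.08% of all genes rose and 0.211% fell, and the count was also 0 without library 2, the one rich in ribosomal RNA-like reads. At 8 h 2 members rose (Txnrd1 and Nfe2l2) and 0 fell, against 13.1% and 12.1% of all genes. At 24 h 2 rose (Txnrd1 and Gclm) and 1 fell (Nqo1), against 12.6% and 10.5%. At 48 h 2 rose (Txnrd1 and Hmox1) and 2 fell (Sqstm1 and Nfe2l2), against 16.9% and 19.9%. The 48 h count was as low as 1 without library 1 of IFN-gamma and 5 without library 3 of IFN-gamma or library 2 of untreated cells. At 8, 24 and 48 h these shares, 2 to 4 of 10, lie near the share of all genes called in either direction. Both treatments were compared with the same untreated libraries at 1 and 8 h, so their differences share those controls.

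In the direct comparison at 8 h, 8 of the 10 genes differed between thapsigargin and IFN-gamma, where 61.4% of all genes did. Hmox1 (2.08 ± 0.11), Sqstm1 (1.34 ± 0.10), Srxn1 (0.85 ± 0.09), Gclc (0.64 ± 0.06) and Nfe2l2 (0.52 ± 0.10) were higher with thapsigargin. Prdx1 (-1.19 ± 0.09), Txnrd1 and Gsr (-0.75 ± 0.09) were higher with IFN-gamma. At 1 h Gclm was lower with thapsigargin by -0.27 ± 0.08 (adjusted p = 0.0357), 1 of 10 genes against 6.09% of all genes, with overlapping groups and a call lost in 12 of 17 alternatives.

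The change in the thapsigargin effect over time was tested directly, and 7 of the 10 members had an effect at 8 h that differed from that at 1 h and 47.4% of all genes did. Besides Hmox1 and Prdx1, the differences of effects were 1.56 ± 0.14 for Sqstm1, 1.16 ± 0.13 for Srxn1, 0.84 ± 0.14 for Nfe2l2, 0.58 ± 0.09 for Gclc and -0.62 ± 0.13 for Gsr, the last of them not called in the upper 20 library numbers alone (adjusted p = 0.0685). For IFN-gamma, 1 of 10 members (Txnrd1) changed its effect between 1 and 8 h, against 12.4% of all genes. Between 8 and 24 h 0 members were called by edgeR and 0 by DESeq2, with 3 at an unadjusted p under 0.05 (Nfe2l2, Sqstm1 and Gsr), against 1.34% of all genes. Between 8 and 48 h 3 were called, Nfe2l2, Hmox1 (0.52 ± 0.16, adjusted p = 0.0222) and Sqstm1 (-0.50 ± 0.14, adjusted p = 0.0156), against 17% of all genes. The Hmox1 call was lost in 12 of 25 alternatives (adjusted p up to 0.216), 7 of which left out a single library of untreated or IFN-gamma cells (library 3 of untreated and 1 or 2 of IFN-gamma cells at 8 h, 1 or 3 of untreated and 1 or 4 of IFN-gamma cells at 48 h). The Sqstm1 call was lost in 3.

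Several members fell in untreated cells over time in culture. At 8 h Gclc (-0.24 ± 0.06) and Gsr (-0.37 ± 0.09) had fallen from 1 h, 2 of 10 genes where 2.16% of all genes fell, and 0 had risen where 4.77% of all genes rose. At 24 h 5 had fallen and 0 had risen, against 14.4% and 13.9% of all genes, with Gsr (-0.46 ± 0.09) and Srxn1 (-0.32 ± 0.09) the largest changes. At 48 h 5 had fallen and 2 had risen, against 30.4% and 31.9%. In either direction, 7 of the 10 members and 9436 of the 15135 genes were called. Whether the members' share of falls differs from that of all genes was not tested. The 48 h falls were Txnrd1 (-0.62 ± 0.08), Hmox1, Gsr (-0.58 ± 0.09), Srxn1 (-0.39 ± 0.09) and Gclc (-0.28 ± 0.06), and the rises were Sqstm1 and Nfe2l2 (0.23 ± 0.10, adjusted p = 0.045, lost in 7 of 17 alternatives). The 24 h count was as low as 1 without library 4 of 24 h, and the 8 h count was 0 without library 4 of 8 h. In the lower 20 library numbers alone the count was 0 at 8 h and 0 at 24 h. In the upper 20 alone it was 0 at 8 h and 4 at 24 h. These 3 comparisons share the untreated libraries of 1 h. Oligodendrocyte lineage markers summed to 11948 to 19894 CPM at 48 h, more than at 1 h, and their part in these changes was not tested.

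The cell type markers also moved with treatment at 8 h. The 11 lineage markers summed to 7702 to 9467 CPM in untreated cells, 3185 to 3955 with thapsigargin and 5404 to 6075 with IFN-gamma. The 8 astrocyte markers summed to 298 to 396, 222 to 264 and 437 to 497 CPM, and 9 neuron markers (7 tested) to 73.2 to 82.8, 207 to 227 and 314 to 368 CPM, in the same order. Fibroblast and mural markers (3 of 7 tested) reached 13 to 16.3 CPM with IFN-gamma against 0.428 to 1.10 untreated, and the 8 endothelial markers (4 tested) stayed between 17.4 and 27.8 CPM in all 3 groups. The shifts with IFN-gamma were present at the later times too. At 24 h the sums with IFN-gamma were 6394 to 8031 CPM for lineage markers (9506 to 12917 untreated), 476 to 533 for astrocyte (292 to 353), 173 to 237 for neuron (69.2 to 78) and 15.8 to 19.4 for fibroblast and mural markers (0.596 to 4.2). At 48 h they were 7014 to 10910 CPM for lineage markers (11948 to 19894 untreated), 420 to 474 for astrocyte (359 to 468), 161 to 223 for neuron (78.4 to 92.8) and 16.6 to 19 for fibroblast and mural markers (0.922 to 2.35), and only the astrocyte ranges overlapped. The part of these shifts in the member changes was not tested.

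Other genes of the pathway were read from lists of related function. After 8 h of thapsigargin the list medians were 0.34 for partners and regulators of NRF2, -0.41 for other glutathione and detoxification genes, -0.21 for NADPH supply, -0.05 for other thioredoxin and peroxiredoxin genes, -0.24 for superoxide dismutases, catalase and glutathione peroxidases, -0.44 for haem and iron handling, 0.21 for autophagy receptors and 4.37 for ATF4 and CHOP genes, against -0.01 over all genes. The counts of each list below are to be read against the 29.6% of all genes that rose and the 31% that fell with thapsigargin at 8 h, and the 13.1% and 12.1% with IFN-gamma at 8 h. Among 11 tested partners and regulators of NRF2, 6 rose and 1 fell with thapsigargin at 8 h. Nfe2l1, which encodes the ER-anchored relative NRF1, rose by 1.94 ± 0.07 (412 ± 21 CPM against 107 ± 11.2, SD). The small MAF genes Mafg and Mafk rose by 1.33 ± 0.08 and 0.75 ± 0.12, and Cul3, the ligase scaffold, by 0.40 ± 0.06. With IFN-gamma at 8 h 6 of the 11 rose and 0 fell, led by Maff (1.49 ± 0.20, 25.2 ± 1.63 CPM against 8.96 ± 1.64) and Mafk (0.46 ± 0.12), with Bach1 (0.25 ± 0.07) and Keap1 (0.23 ± 0.06) following. Maff had already risen at 1 h, by 1.07 ± 0.19 with IFN-gamma and by 0.80 ± 0.19 with thapsigargin, as the single gene of the list called at that time in each. Of all genes, 1.08% rose with IFN-gamma and 6.61% with thapsigargin at 1 h.

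Glutathione and detoxification genes outside the 10 members were mixed after 8 h of thapsigargin, with 7 of 20 tested genes higher and 10 lower, against 29.6% and 31% of all genes. Slc7a11, the cystine carrier of system xc-, rose by 8.92 ± 0.34 (238 ± 19.4 CPM against 0.487 ± 0.158), and its heavy chain partner Slc3a2 rose by 3.21 ± 0.10 (658 ± 10.9 CPM against 71.1 ± 3.44). Both are also known ATF4 targets. Ptgr1, a reductase of reactive aldehydes, fell by -2.36 ± 0.26, from a low level (0.472 ± 0.147 CPM against 2.48 ± 0.327). Gsta3 rose by 2.36 ± 0.57, also at a low level (0.685 ± 0.0756 CPM against 0.122 ± 0.0773). With IFN-gamma 3 rose and 3 fell at 8 h. The rises were Mgst1 (1.48 ± 0.34, at 1.41 ± 0.435 CPM against 0.496 ± 0.222), Ggct (0.88 ± 0.14), which acts in the gamma-glutamyl cycle, and the exporter Abcc4 (0.56 ± 0.07). Among the falls was Ugdh (-0.52 ± 0.15, at 210 ± 16.7 CPM against 301 ± 7.10).

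Genes that supply NADPH, which both Gsr and Txnrd1 use, were called lower in 5 of 10 cases and higher in 1 after thapsigargin for 8 h, where 31% of all genes fell and 29.6% rose. Idh1 fell by -1.33 ± 0.15 (168 ± 16.9 CPM against 424 ± 58.4), and the pentose phosphate genes Taldo1, Pgd and Tkt fell by -0.66 ± 0.13, -0.57 ± 0.07 and -0.32 ± 0.09. At 48 h of IFN-gamma 3 fell and 0 rose, against 19.9% and 16.9% of all genes, namely Taldo1 (-0.95 ± 0.13), Idh1 (-0.87 ± 0.15) and Me1 (-0.53 ± 0.07).

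Of 17 other thioredoxin and peroxiredoxin genes, 4 rose and 6 fell with thapsigargin at 8 h, shares near those of all genes (29.6% and 31%). Txnip, which binds and inhibits thioredoxin, rose by 3.77 ± 0.37 (28.7 ± 4.72 CPM against 2.16 ± 1.14), and Sesn2, a stress-induced sestrin, by 1.77 ± 0.08. Prdx2 fell by -1.23 ± 0.08 (242 ± 11.9 CPM against 569 ± 80), in the same direction as Prdx1, and the glutaredoxin Glrx by -1.93 ± 0.16. Among 8 tested superoxide dismutase, catalase and glutathione peroxidase genes 1 rose and 4 fell, with Cat at -0.49 ± 0.07 and the lipid peroxide reductase Gpx4 at 0.32 ± 0.09. With IFN-gamma, Gpx4 had fallen at 8, 24 and 48 h, by -0.43 ± 0.09, -0.54 ± 0.09 and -0.82 ± 0.09. Cat had fallen at the same times, by -0.23 ± 0.07, -0.25 ± 0.07 and -0.42 ± 0.07. Gpx1 moved the other way, with rises of 0.32 ± 0.09 at 8 h and 0.34 ± 0.09 at 24 h.

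Among genes of haem and iron handling 3 of 15 rose and 8 fell with thapsigargin at 8 h, against 29.6% and 31% of all genes. Blvra, which acts on the biliverdin that haem oxygenase releases, fell by -1.32 ± 0.11 (11 ± 0.769 CPM against 27.6 ± 4.35), Tfrc, the transferrin receptor, by -1.26 ± 0.15, and Urod, a haem synthesis enzyme, by -1.07 ± 0.10. Of autophagy receptors and LC3 genes, the group in which p62 acts, 6 of 11 were higher and 3 lower. Nbr1 rose by 0.95 ± 0.11 (543 ± 9.92 CPM against 281 ± 25.1), Optn by 0.65 ± 0.09 and Gabarapl1 by 0.50 ± 0.06. With IFN-gamma at 8 h 6 of the 11 rose and 0 fell, with Calcoco1 (0.76 ± 0.14) and Nbr1 (0.47 ± 0.11) leading, while Sqstm1 itself was not called (0.15 ± 0.10, adjusted p = 0.302).

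The ATF4 and CHOP genes, the transcriptional arm that PERK signalling is best known for, rose in 17 of 17 cases with thapsigargin at 8 h, with a median of 4.37 against 0.33 for the 10 members. Trib3 went to 372 ± 17.8 CPM against 0.920 ± 0.196, Chac1, which degrades glutathione, to 193 ± 7.47 CPM against 1.12 ± 0.473 and Atf3 to 56.5 ± 7.88 CPM against 0.492 ± 0.133. At 1 h, when Prdx1 was the single member called, 7 of the 17 had risen and 1 had fallen, against 6.61% and 2.18% of all genes. Ddit3 was at 2.53 ± 0.15 and Herpud1 at 1.12 ± 0.12. IFN-gamma raised 5 and lowered 2 of them at 8 h. The largest of these changes was that of Atf3, a rise of 4.31 ± 0.38 (9.96 ± 2.68 CPM against 0.492 ± 0.133). Trib3 rose by 2.23 ± 0.38, to 4.42 ± 0.805 CPM against 0.920 ± 0.196.

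**Figure D3:**
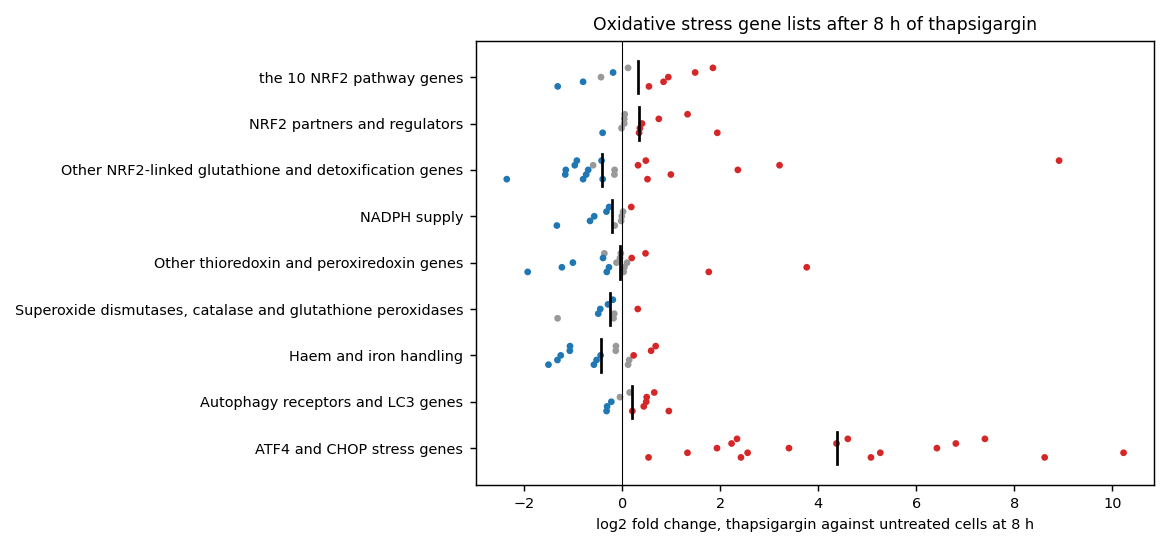
Log2 fold change of every tested gene of each list, thapsigargin against untreated cells at 8 h, with 1 point per gene (red called higher, blue called lower, grey not called; the vertical offset only separates points) and a black bar at the list's median. The median is 0.33 for the 10 members and 4.37 for ATF4 and CHOP genes, and it is above 0 as well for the partners of NRF2 and the autophagy receptors and below 0 for the other lists.

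Annotated transcripts were read from the table of estimated counts as a description, with no test. For 6 of the members (Nfe2l2, Hmox1, Nqo1, Gclc, Srxn1 and Gsr) the leading transcript took at least 93.5% of the gene's estimated counts in every library. The leading share was 80.9 to 93.2% for Sqstm1, 70.6 to 84.2% for Gclm and 68.5 to 77.6% for Prdx1. Txnrd1 was the most divided, with 38.4 to 74% on Txnrd1-201. Txnrd1-201 and Txnrd1-208 begin at the middle RefSeq start shown above, 27 bases before and 1 base after it, and Txnrd1-206 begins 40 bases before the third start.

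Both of the main Txnrd1 transcripts were higher with IFN-gamma at 8 h. Estimated levels of Txnrd1-201 ran from 247 to 278 CPM in untreated cells and from 311 to 426 with IFN-gamma, and those of Txnrd1-206 from 57.5 to 93.2 and from 103 to 218. Neither pair of ranges overlapped. The share of Txnrd1-206 among the gene's estimated counts was 21.6, 15.1, 18.5 and 16.3% in the untreated libraries of 8 h and 32.4, 24.2, 30.4 and 16.4% with IFN-gamma, ranges that overlapped. At 48 h the shares were 9.48, 5.87, 15 and 11.3% and 33, 18.5, 15.7 and 20.4%, all IFN-gamma libraries above all untreated ones. With thapsigargin at 8 h the share ran widely, at 24.7, 36.3, 14.6 and 21.1%. Estimated counts of transcripts that share exons carry assignment error that the files do not give.

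**Figure D4:**
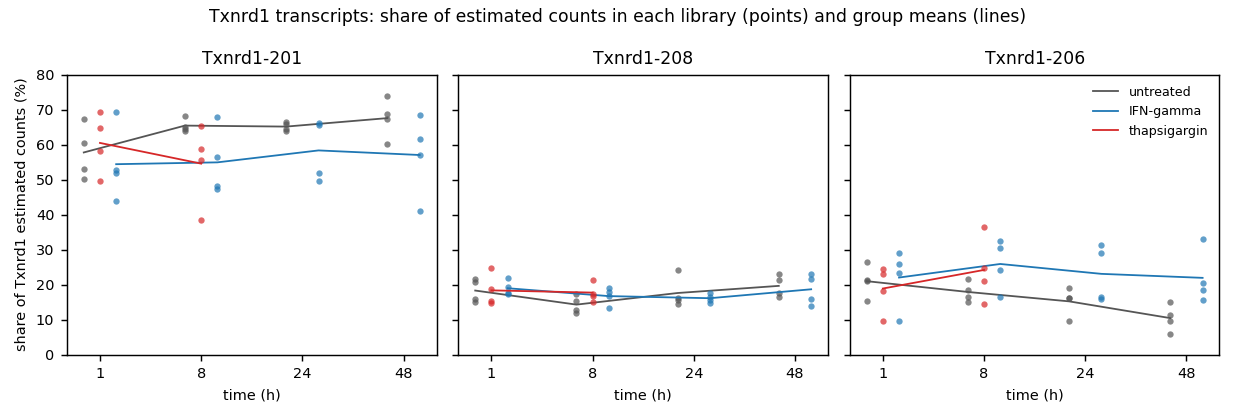
Share of Txnrd1's estimated counts on 3 transcripts (percent) against time in hours (equally spaced), with 1 point per library and lines through the means of 4 libraries. For Txnrd1-206 at 48 h the IFN-gamma libraries, from 15.7 to 33%, lie above the untreated ones, from 5.87 to 15%.

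The pattern of each member over the 10 group means (log2 of CPM plus 0.5) was set beside that of 12073 other genes (12074 for Nqo1) whose mean log2 CPM was 1 or more. For Hmox1 the most alike were Spcs3 (r = 0.994), Focad (r = 0.992) and Asns (r = 0.990), the last of them asparagine synthetase. For Sqstm1 they were Tmem167b (r = 0.992), Pla2g6 (r = 0.991) and Os9 (r = 0.988), and for Srxn1 Gmds (r = 0.987), P3h2 (r = 0.987) and Tcea1 (r = 0.985). For Nfe2l2 they were Hdac5 (r = 0.974), Zbtb7b (r = 0.965) and Proser1 (r = 0.960), and for Gclc Rrp9 (r = 0.984), Etf1 (r = 0.976) and Mak16 (r = 0.971). For Prdx1 they were Dynlt1a (r = 0.982), Nacc1 (r = 0.982) and Actb (r = 0.982), the last of them beta-actin, and for Gsr Rps6ka1 (r = 0.987), Impa2 (r = 0.983) and Tedc2 (r = 0.979). For Txnrd1 they were Cfap298 (r = 0.982), Akap12 (r = 0.980) and Rgs20 (r = 0.978). Gclm was followed by Eid3 (r = 0.934), Sbno2 (r = 0.910) and Aste1 (r = 0.887) and Nqo1 by Glyctk (r = 0.935), Mrps36 (r = 0.907) and Pyurf (r = 0.905). These coefficients are descriptions over 10 points that share libraries, and for the genes that changed most the thapsigargin group of 8 h stands far from the other 9. Among the members themselves r was highest between Hmox1 and Srxn1 (0.97) and lowest between Sqstm1 and Gsr (-0.94).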

How the data were processed

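Bulk RNA of 40 libraries was sequenced. The authors deposited a gene table of raw read counts and an isoform table of estimated counts, which need not be whole. Per the submitters' processing notes, the tools were STAR, featureCounts, kallisto and edgeR, without versions or roles. Genome build, annotation and strand use: not given in the sources used here. Value columns were matched to samples by the library numbers in their names. Groups came from the labels, and replicates are numbered 1 to 4 in accession order, and these numbers were not used to pair samples. No 2 libraries of a group agreed within sampling noise (chi-square per degree of freedom at least 5.46).

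Genes were filtered with filterByExpr, scaled by TMM and fitted with 1 mean per group in edgeR 4.0.16 (R 4.3.3, glmQLFit and glmQLFTest, 30 residual degrees of freedom, prior count 0.125 for fold changes). Each SE was derived from the fold change and its F statistic. P-values were adjusted over all 15135 genes in each comparison. Depth (13165483 to 22651092 reads) limits genes of few reads, such as Nqo1. The 10 members, all reported, and the 8 related lists and 6 marker lists were chosen with earlier results of these data known. From each related list the called genes of largest absolute change, up to 4 per treatment comparison, could be named, and for each member the 3 genes of most similar pattern. Alternatives were RLE size factors, DESeq2 1.42.0, no filter on low counts, only the groups compared, library number range (lower or upper 20) as a block, each range alone, the Y-linked level as covariate, the isoform table summed per gene and rounded to whole counts, and leaving out each library in turn. Hmox1, Gclc and Gsr have no entry in the promoter table used. Motif matches were counted on both strands with Python.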

Additional observations from a re-analysis of the deposited data

Results flagged for a closer look

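Of the 100 combinations of member and group, 4 held a library set far apart from the other 3, where chance gives about 5 per 100. Hmox1 in untreated cells at 1 h reached 26.5 CPM in library 3, against 25.1 to 25.3 in the others. Sqstm1 was lowest in library 3 of untreated cells at 8 h, at 104 CPM, and highest in library 2 of IFN-gamma cells at 24 h, at 135 CPM. Prdx1 was highest in library 1 of IFN-gamma cells at 8 h, at 309.8 CPM.

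In 11 cases a member's treatment effect differed between times by edgeR's test of that difference. With thapsigargin the effect at 8 h minus that at 1 h was 2.04 for Hmox1, 1.56 for Sqstm1, 1.16 for Srxn1, 0.84 for Nfe2l2, 0.58 for Gclc, -0.99 for Prdx1 and -0.62 for Gsr on the log2 scale. With IFN-gamma the effect at 8 h minus that at 1 h was 0.60 for Txnrd1. The IFN-gamma effect at 48 h minus that at 8 h was -0.59 for Nfe2l2, 0.52 for Hmox1 and -0.50 for Sqstm1.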

How the results depend on the processing

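No called value changed sign in any alternative. Of 52 calls of a member in a comparison, 28 were kept in every alternative run for them and 24 were lost in at least 1, while 13 of 98 uncalled results were gained in at least 1. For thapsigargin against untreated cells at 8 h, untreated cells at 48 h against 1 h, thapsigargin against IFN-gamma at 8 h, the change in the thapsigargin effect, IFN-gamma at 1 h and the change in the IFN-gamma effect from 8 to 24 h, the number of members called stayed within 1.5 times the main count in every alternative. The cause of the moves below was not tested, but libraries of the lower or upper 20 library numbers alone leave 2 libraries a group. IFN-gamma at 8 h had 1 member called in the lower 20 (main count 2). At 24 h (main count 3) it had 1 in the lower 20 and 1 in the upper 20. At 48 h (main count 4) it had 2 with no filter, 1 with only the groups compared, 1 in the lower 20, 1 in the upper 20, 2 with the isoform table and 1 to 5 when 1 library was left out. With the Y-linked covariate the 48 h count stayed at 4, but with 1 higher and 3 lower in place of 2 and 2. Thapsigargin at 1 h (main count 1) had 0 in the lower 20, 2 in the upper 20, 0 with the isoform table and 0 to 2 when 1 library was left out. Untreated cells at 8 h against 1 h (main count 2) had 1 with no filter, 0 in the lower 20, 0 in the upper 20, 0 with the isoform table and 0 to 2 when 1 library was left out. At 24 h against 1 h (main count 5) they had 3 with no filter, 0 in the lower 20, 2 with the isoform table and 1 to 6 when 1 library was left out. Thapsigargin against IFN-gamma at 1 h (main count 1) had 0 with no filter, with only the groups compared, in the lower 20, with the Y-linked covariate and with the isoform table, and 0 to 2 when 1 library was left out. The change in the IFN-gamma effect from 1 to 8 h (main count 1) had 3 with only the groups compared and 0 in the lower 20. The change from 8 to 48 h (main count 3) had 1 with only the groups compared, 0 in the lower 20 and 1 in the upper 20. No paired analysis was possible because the labels give no replicate number that groups share. Y-linked levels that recur by library number among treated groups are no label of a shared source, and no such recurrence ties treated to untreated libraries, which all held 144 to 424 CPM.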
